A study of Mus musculus with 8 samples.

Results

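The genes described here drive entry into S phase and copy the genome: D-type and E-type cyclins, E2F factors, the proteins that license and open replication origins, the polymerases and clamp proteins of the fork, the enzymes that supply deoxynucleotides, and Uhrf1. The list held 31 genes. Of these 30 were measured, out of 18193 genes on the arrays. Each was read by the probe set that had its symbol alone and the highest mean over the 8 arrays. Chaf1a had no such probe set in the gene table used and was not analysed here. The arrays were Affymetrix mouse expression arrays of total RNA from primary palatal mesenchyme, taken from C57BL/6J embryos at embryonic day 13.5 and grown for 2 passages. The mutant genotype was Tgfbr2 fl/fl; Wnt1-Cre (4 arrays) and the control genotype Tgfbr2 fl/fl with no Cre named (4 arrays), per the genotype labels, so both would carry the floxed receptor alleles. The titles of the control samples call them Wildtype. Wnt1-Cre acts in the neural crest lineage, from which most palatal mesenchyme derives, so cells of another origin in the cultures keep an intact receptor gene. The labels do not say whether each sample came from its own embryo, so p-values reflect only how far these samples spread, part of which may be technical. The study was designed around cell metabolism under loss of TGF-beta signalling. The values here address whether the machinery of DNA replication was expressed differently in the mutant cultures.

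At the boundary between G1 and S phase, D-type cyclins and then E-type cyclins activate kinases that phosphorylate the retinoblastoma protein, which frees E2F factors to switch on the genes of DNA replication. Cdc6 and Cdt1 load the ring of MCM subunits onto origins, the GINS complex joins it to form the active helicase, and polymerase alpha with primase starts each strand that the clamp-bound polymerases then extend. TGF-beta is known to arrest epithelial cells in G1, while in mesenchymal cells its effect on proliferation varies with the setting.

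Many of these genes are known E2F targets, and promoter windows are shown for the members with the smallest p in the licensing and nucleotide groups, with the member of the largest p for contrast. Windows came from RefSeq (GRCm38.p6) and ran from 250 bases before to 50 bases after a transcription start. Of the 31 listed genes 25 had at least 1 window, 32 windows in all, while Ccnd1, Ccnd2, Ccne2, Gins1, Gins2 and Mcm4 had none in that table. The E2F letters searched were TTTGGCGC, TTTGCCGC, TTTCGCGC and TTTCCCGC, and the CCAAT box was searched as CCAAT, each on both strands. At least 1 E2F match lay in 11 of the 32 windows (34.4%), belonging to 11 of the 25 genes, against 2.26% of the 32851 windows in the table. A CCAAT match lay in 19 of the 32 windows (59.4%), against 37.4% of all windows. The genes with an E2F match were E2f2, Cdc6, Cdt1, Mcm3, Mcm5, Mcm6, Mcm7, Pola1, Rfc3, Lig1 and Uhrf1. A match describes letters in the window and does not show binding. Mcm2 lies at chr6:88898731-88899030 on the minus strand, with 1 CCAAT match and no E2F match. Cdc6 lies at chr11:98907901-98908200 on the plus strand, with 1 E2F match. Tyms lies at chr5:30073576-30073875 on the minus strand and had neither motif. Mcm10, whose difference had the largest p, lies at chr2:5012742-5013041 on the minus strand with 3 CCAAT matches. Its window ends in the opening letters of TTTGGCGC (tttggcg), so an E2F match running past the window's end would not be counted. Mcm7, added after its matches had been seen, lies at chr5:138171834-138172133 on the minus strand. It is the window of its 2 with the E2F matches, 2 in number, beside 3 CCAAT matches, and an E2F and a CCAAT match overlap near its end. Each sequence reads 5′ to 3′ in the direction of its gene, and capitals mark every E2F or CCAAT match on either strand.
Mcm2: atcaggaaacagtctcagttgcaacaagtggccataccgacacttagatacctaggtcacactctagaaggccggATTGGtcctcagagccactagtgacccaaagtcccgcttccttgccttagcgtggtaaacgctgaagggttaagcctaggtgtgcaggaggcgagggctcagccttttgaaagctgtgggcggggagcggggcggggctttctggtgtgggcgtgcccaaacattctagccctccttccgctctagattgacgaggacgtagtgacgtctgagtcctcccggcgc
Cdc6: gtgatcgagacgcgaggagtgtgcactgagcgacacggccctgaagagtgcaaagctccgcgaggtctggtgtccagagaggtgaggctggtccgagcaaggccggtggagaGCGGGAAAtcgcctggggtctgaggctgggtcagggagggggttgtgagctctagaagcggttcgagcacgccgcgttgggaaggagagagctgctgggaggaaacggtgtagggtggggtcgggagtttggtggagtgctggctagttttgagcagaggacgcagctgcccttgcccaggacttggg
Tyms: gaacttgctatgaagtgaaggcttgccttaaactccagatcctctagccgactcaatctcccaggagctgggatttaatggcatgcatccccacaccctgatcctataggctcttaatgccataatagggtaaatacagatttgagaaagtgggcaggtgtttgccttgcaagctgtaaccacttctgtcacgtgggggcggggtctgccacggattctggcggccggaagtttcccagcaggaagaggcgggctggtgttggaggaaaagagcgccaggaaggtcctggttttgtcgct
Mcm10: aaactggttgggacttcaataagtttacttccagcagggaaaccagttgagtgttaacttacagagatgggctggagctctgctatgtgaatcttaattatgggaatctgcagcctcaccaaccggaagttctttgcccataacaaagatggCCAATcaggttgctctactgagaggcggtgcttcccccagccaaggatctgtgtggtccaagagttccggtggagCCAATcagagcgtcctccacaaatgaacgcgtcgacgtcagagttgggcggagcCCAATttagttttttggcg
Mcm7: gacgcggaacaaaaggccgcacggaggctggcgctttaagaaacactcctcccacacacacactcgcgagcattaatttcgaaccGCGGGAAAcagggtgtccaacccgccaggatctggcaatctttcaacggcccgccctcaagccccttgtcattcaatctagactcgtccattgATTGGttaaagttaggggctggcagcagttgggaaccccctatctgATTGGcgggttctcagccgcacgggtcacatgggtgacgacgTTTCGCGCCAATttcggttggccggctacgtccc

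The array medians lay between 6.90 and 6.96 on the log2 scale, and the median probe set over all arrays read 6.94. On this scale a difference of 1 is a factor of 2, and differences are mutant minus control throughout. The array number, 4 per genotype, limits the precision. The Tgfbr2 probe set used read 12.63, 12.76, 12.55 and 11.73 on the mutant arrays and 12.40, 12.38, 11.72 and 11.66 on the control arrays. Where it lies relative to the floxed segment was not analysed here, so it is no check of the genotype labels. Of 13 palatal mesenchyme markers 11 were brighter than the median probe set on every array, while Osr2 and Tbx22, transcription factors of the developing palate, were dimmer than it on every array. All 21 macrophage and leukocyte markers were also brighter than it throughout, against 2 of 7 epithelial and 1 of 6 endothelial markers. Arrays differed in their spike-in controls. In both genotypes the bioB spike-in, added at hybridisation, was at 6.34 to 6.52 for replicates 1 and 2, and at 8.24 to 8.79 for replicates 3 and 4. The poly-A labelling controls read 6.77 to 7.56 on mutant 3, mutant 4 and control 3 and 8.53 to 9.21 on the other arrays. Control 3 also read 11.48 for the X-inactivation transcript Xist, against 5.93 to 6.59 elsewhere. Over all genes limma called 12 lower and 4 higher in mutants. Without mutant 4 it called 1316 genes, and without mutant 1, mutant 2 or control 1 it called 0, with 1119, 1484 and 1381 genes lower at an unadjusted p under 0.05.

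Most replication genes read lower in the mutant cultures, by small amounts, and no single one passed the test over all genes. Of the 30 measured, 25 had a lower mean in mutants and 5 a higher one. The median difference was -0.25, against -0.01 over all genes, and the range was -0.68 to 0.24. With limma and Benjamini-Hochberg adjustment 0 of the 30 passed in either direction, beside 0.0660% of all genes called lower and 0.0220% called higher, and the members' adjusted p ran from 0.187 to 0.952. At an unadjusted limma p under 0.05, 12 of 30 were lower (40%), beside 9.69% of all genes, and 0 were higher, beside 5.84%. The 12 were Ccne1, Cdc6, Mcm2, Mcm3, Mcm7, Gins2, Pola1, Prim1, Rfc4, Rrm2, Tyms and Uhrf1. In 3 genes (10%), Ccne1, Mcm2 and Rfc4, all mutant arrays lay below all control arrays, beside 5.18% of all genes. None of the 30 was separated in the other direction, beside 2.89% of all genes. In RNA from whole cultures, fewer cycling cells and less of each transcript per cell cannot be told apart.

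**Figure D1:**
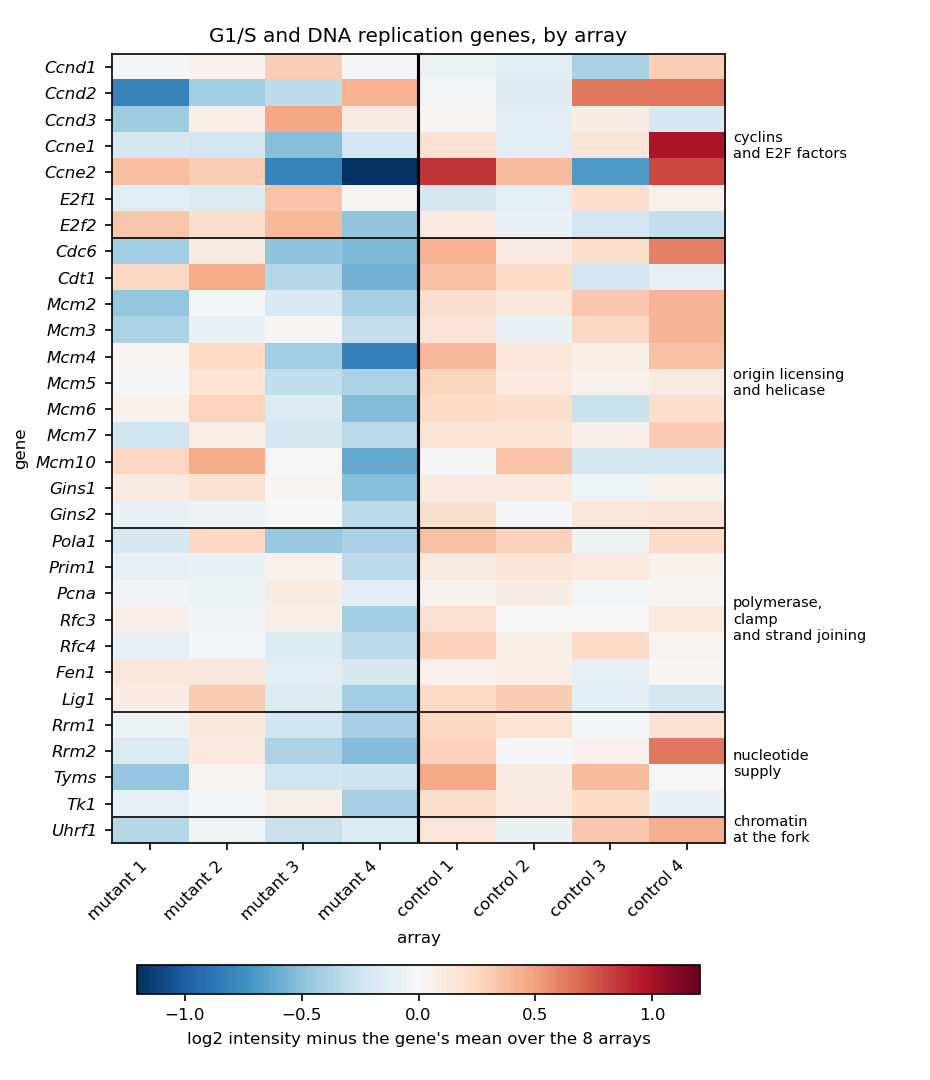
Log2 intensity of the 30 measured genes (rows, by role) on each array (columns), minus each gene's mean over the 8 arrays; blue is below and red above that mean. Mutant 4 is blue in nearly every row, with 3 of 30 genes above their own mean, while control 1 has 26 above it.

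**Figure D2:**
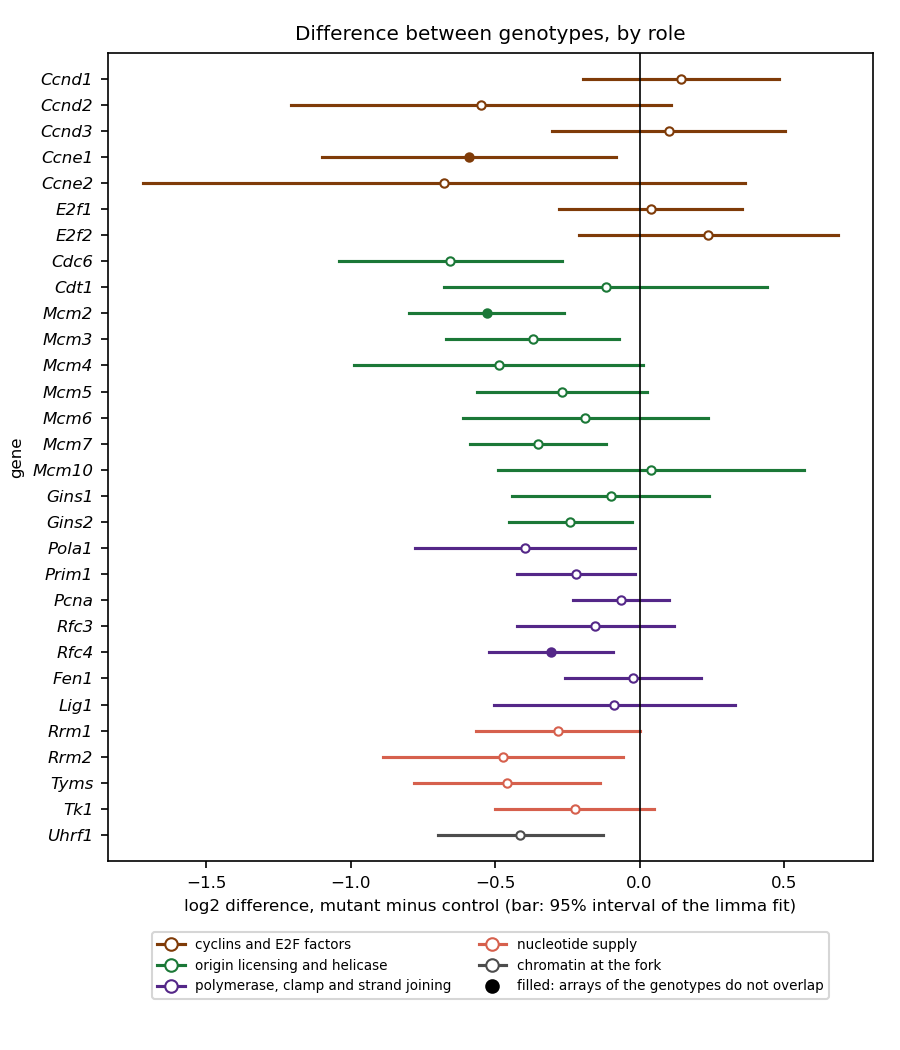
Log2 difference between genotypes (horizontal axis, mutant minus control) for each gene, with bars for the 95% interval of the limma fit and colours for the role groups. Filled points mark Ccne1, Mcm2 and Rfc4, whose arrays did not overlap between genotypes; 25 of 30 points lie left of 0.

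The listed cyclins and E2F factors, which act at entry into S phase, showed no common direction. Of 15 other G1/S regulators outside the list, 13 were lower in mutants, beside 51.7% of all genes. Their median difference was -0.33. Of 7 cyclins and E2F factors 3 were lower and 4 higher in mutants, and their median difference was 0.04, or -0.07 without mutant 3. Those lower were both E-type cyclins and the D-type cyclin gene Ccnd2. Ccne1, an E-type cyclin that activates CDK2, read 9.97, 9.96, 9.67 and 9.95 on the mutant arrays and 10.36, 10.05, 10.34 and 11.17 on the control arrays. No mutant array reached the lowest control, at a gap of 0.08, and control 4 stood highest. The difference was -0.59 (SE 0.22), with limma giving an adjusted p of 0.270, and it was -0.36 without control 4 and -0.38 with macrophage content per array as a covariate. Its probe set is one whose probes may match related transcripts (a name ending in _x_at), and the other Ccne1 probe set differed by -0.66 (SE 0.24). Probe sets ending in _x_at or _s_at were used for 9 of the 30 genes, among them Mcm2 and Mcm7. With such probe sets left out, the median difference of the 30 genes was -0.26. Ccne2, the second E-type cyclin, read 9.69, 9.62, 8.52 and 8.12 on the mutant arrays and 10.19, 9.70, 8.64 and 10.13 on the control arrays. It was lowest on mutant 3, mutant 4 and control 3, the arrays with the low labelling controls, and the genotypes overlapped. The difference was -0.68 (SE 0.45), with limma giving an adjusted p of 0.506, and it was -0.34 with the labelling controls (low or high) as a block. It was -0.39 without mutant 4, -1.02 without control 3 and -1.06 with the macrophage covariate.

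Ccnd2, a D-type cyclin that activates CDK4 and CDK6, read 12.57, 12.96, 13.06 and 13.79 on the mutant arrays and 13.35, 13.22, 14.00 and 14.01 on the control arrays. Mutants 1, 2 and 3 lay below every control and mutant 4 lay among the controls. The difference was -0.55 (SE 0.29), with limma giving an adjusted p of 0.391, and the 6 further Ccnd2 probe sets differed by -0.82 to -0.52. The other D-type cyclins did not share this. Ccnd1, known as a cyclin induced by mitogens, differed by 0.14 (95% interval -0.20 to 0.48) and Ccnd3 by 0.10 (-0.30 to 0.50). The activator E2F genes E2f1 and E2f2 differed by 0.04 (-0.28 to 0.35) and 0.24 (-0.21 to 0.69). A second E2f1 probe set differed by -0.15 and a dim one by -0.08. E2f2 differed by 0.44 without mutant 4 and by -0.04 with the macrophage covariate. Adjusted p for these 4 genes ran from 0.593 to 0.919 in limma.

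Origin licensing and helicase genes were lower in 10 of 11 cases, with a median difference of -0.27, and 5 of 11 had an unadjusted p under 0.05, all lower, beside 9.69% of all genes. All 6 subunits of the MCM ring, which unwinds DNA at the fork, were lower in mutants, with differences of -0.53 to -0.19. Without mutant 4, Mcm6 differed by -0.04 and Mcm4 by -0.30. Mcm2, the subunit with the smallest p of the 30 genes, read 9.98, 10.44, 10.26 and 10.05 on the mutant arrays and 10.64, 10.58, 10.77 and 10.85 on the control arrays. The genotypes did not overlap, with a gap of 0.14 between mutant 2 and control 2. The difference was -0.53 (SE 0.12), a ratio of 0.693, with limma giving an adjusted p of 0.187. The second Mcm2 probe set differed by -0.78 (SE 0.16). Cdc6, which loads the MCM ring at origins, read 7.61, 8.12, 7.53 and 7.48 on the mutant arrays and 8.43, 8.11, 8.20 and 8.62 on the control arrays. Mutant 2 stood level with control 2, the lowest control, and the other mutant arrays lay below every control. The difference was -0.66 (SE 0.17), a ratio of 0.635, with limma giving an adjusted p of 0.187.

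Mcm7, a further subunit of the ring, read 11.90, 12.22, 11.93 and 11.82 on the mutant arrays and 12.31, 12.31, 12.21 and 12.45 on the control arrays. Mutant 2 just exceeded control 3, and the other mutants lay below all controls. The difference was -0.35 (SE 0.10), with limma giving an adjusted p of 0.200, and 3 further Mcm7 probe sets differed by -0.52 to -0.38. The remaining ring subunits were Mcm3 (-0.37), Mcm4 (-0.49), Mcm5 (-0.27) and Mcm6 (-0.19), with adjusted p of 0.254 to 0.663. Gins2, a subunit of the GINS complex, differed by -0.24 (SE 0.09) with adjusted p = 0.279, and its partner Gins1 by -0.10 (95% interval -0.44 to 0.24). Cdt1, the second loader of the ring, differed by -0.12 (-0.68 to 0.44). Mcm10, which helps to activate the assembled helicase, was the single licensing gene with a higher mutant mean, at 0.04 (-0.49 to 0.57). For Cdt1 and Mcm10 mutants 1 and 2 read as high as the highest controls or nearly so, and mutant 4 read lowest of the 8 arrays.

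All 7 genes of the polymerase, clamp and joining group were lower, with a median difference of -0.15, and 3 of 7 had an unadjusted p under 0.05, beside 9.69% of all genes. The median was -0.04 without mutant 4. Rfc4, a subunit of the clamp loader, read 10.19, 10.27, 10.14 and 9.97 on the mutant arrays and 10.57, 10.37, 10.53 and 10.33 on the control arrays. No mutant array reached the lowest control, at a gap of 0.06. The difference was -0.31 (SE 0.09), with limma giving an adjusted p of 0.211. Prim1, the catalytic primase subunit, read 10.70, 10.72, 10.85 and 10.48 on the mutant arrays and 10.91, 10.95, 10.93 and 10.84 on the control arrays. Only mutant 3 reached the lowest control. The difference was -0.22 (SE 0.09), with limma giving an adjusted p of 0.294. Pola1, the catalytic subunit of polymerase alpha, read 8.68, 9.13, 8.42 and 8.49 on the mutant arrays and 9.23, 9.16, 8.81 and 9.11 on the control arrays. Mutant 2 lay among the controls and the other mutants below them. The difference was -0.40 (SE 0.17), with limma giving an adjusted p of 0.306. A second, dim Pola1 probe set differed by 0.30 (SE 0.10), and the mean of both by -0.05.

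Pcna, the sliding clamp that holds polymerases on DNA and a common marker of proliferating cells, was nearly level. It read 13.38, 13.35, 13.50 and 13.28 on the mutant arrays and 13.45, 13.50, 13.39 and 13.43 on the control arrays, and the genotypes overlapped. The difference was -0.06 (95% interval -0.23 to 0.10), with adjusted p = 0.710 in limma. Rfc3, also of the clamp loader, differed by -0.15, and by -0.04 without mutant 4. Fen1, which trims the flaps of Okazaki fragments, and Lig1, which seals them, differed by -0.02 and -0.09. Their adjusted p ran from 0.569 to 0.942 in limma.

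Nucleotide supply genes were lower in 4 of 4 cases, with a median difference of -0.37, and 2 of 4 had an unadjusted p under 0.05, beside 9.69% of all genes. One of these, Tyms, was dim on every array. The median was -0.18 when all probe sets of a gene were averaged. Rrm2, the S-phase subunit of ribonucleotide reductase, read 11.99, 12.27, 11.77 and 11.63 on the mutant arrays and 12.43, 12.14, 12.20 and 12.78 on the control arrays. Mutant 2 lay above control 2 and control 3, and the other mutants below every control. The difference was -0.47 (SE 0.18), with limma giving an adjusted p of 0.275, and the further Rrm2 probe sets both differed by -0.42. Rrm1, the large subunit of the same enzyme, read 11.65, 11.85, 11.48 and 11.32 on the mutant arrays and 11.96, 11.88, 11.69 and 11.89 on the control arrays. Only mutant 2 passed the lowest control. The difference was -0.28 (SE 0.12), with limma giving an adjusted p of 0.324.

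Tyms, the thymidylate synthase that makes the thymine nucleotide anew, read 5.02, 5.52, 5.24 and 5.24 on the mutant arrays and 5.94, 5.57, 5.86 and 5.48 on the control arrays. Its difference was -0.46 (SE 0.14), with limma giving an adjusted p of 0.211. All 8 of these Tyms values lie below the median probe set, so they rest on a dim signal, and mutant 2 overlapped control 4. The 3 further Tyms probe sets were dimmer still and differed by -0.16, 0.08 and 0.07, and the mean of all Tyms probe sets differed by -0.12. Tk1, the thymidine kinase of the salvage route, differed by -0.22 (SE 0.12) with adjusted p = 0.407, and by -0.13 without mutant 4.

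Uhrf1, which recognises half-methylated DNA behind the fork and brings in the maintenance methyltransferase, was the measured chromatin gene of the list. It read 9.61, 9.92, 9.69 and 9.80 on the mutant arrays and 10.10, 9.88, 10.29 and 10.40 on the control arrays. Mutant 2 lay just above control 2, and the other mutants below every control. The difference was -0.41 (SE 0.12), with limma giving an adjusted p of 0.207. Its second probe set differed by -0.32.

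The other probe sets of these genes read the same RNA on the same arrays, so they are no independent check. Genes with several further probe sets, such as Ccnd2 and Mcm7, count more than once in the numbers below. The 30 genes had 76 probe sets, of which 46 were not used above, in 25 genes. Of those 46, 32 lay above the median probe set, and 31 of the 32 were lower in mutants, with 17 at an unadjusted limma p under 0.05, beside 12.6% of all probe sets above the median, and 0 higher at that level, beside 6.72%. The other 14 were dimmer, 7 of them lower, and 1, of Pola1, was higher at that level and none lower. Both probe sets of Mcm4 gave like values, at -0.50 for the second, while the second for Mcm5 gave -0.48 and the second for Fen1 -0.24. In 3 of the 32 the sign was opposite to that of the probe set used above, in E2f1 (-0.15), Ccnd1 (-0.08) and Ccnd3 (-0.00087), and the single one higher in mutants was a Ccnd1 probe set (0.14). With the probe sets of a gene averaged, Rrm1 differed by -0.14 and Mcm3 by -0.22. No probe set of these genes passed an adjusted p of 0.05 in a fit over all probe sets.

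Genes of the same pathway outside the list also read lower in most cases. Of 70 listed, 68 were measured and analysed here. Their median difference was -0.23, with 61 lower and 7 higher. None of the 68 passed the adjusted limma test, while 21 (30.9%) were lower and 1 higher at an unadjusted p under 0.05, beside 9.69% and 5.84% of all genes. In 14 (20.6%) all mutant arrays lay below all control arrays, beside the 5.18% of all genes given above. Among those at an unadjusted p under 0.05, the largest differences were those of Cad, which starts pyrimidine synthesis (-0.75, adjusted p = 0.319 in limma), the repressor E2F gene E2f7 (-0.72, 0.187) and the chromatin remodeller gene Hells (-0.70, 0.187). Pold2, an accessory subunit of polymerase delta (-0.59, 0.227), Dut, which removes dUTP (-0.53, 0.187), and Dbf4, the partner of the Cdc7 kinase (-0.44, 0.245), followed. With the macrophage covariate Cad differed by -0.26 and Rb1 by 0.30. With averaged probe sets Hells differed by -0.27, Dut by -0.28 and Dbf4 by -0.24. E2f7 read 8.20, 8.73, 8.13 and 8.45 on the mutant arrays and 9.05, 8.74, 9.14 and 9.45 on the control arrays. The genotypes did not overlap, but mutant 2 (8.727) nearly reached control 2 (8.736). Rb1, the retinoblastoma protein that holds E2F factors in check, was the single one higher at that level, by 0.51 (SE 0.18, adjusted p = 0.246 in limma). It read 10.74, 10.51, 10.50 and 9.85 on the mutant arrays and 9.98, 9.91, 9.75 and 9.90 on the control arrays, so mutant 4 lay within the controls.

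**Figure D3:**
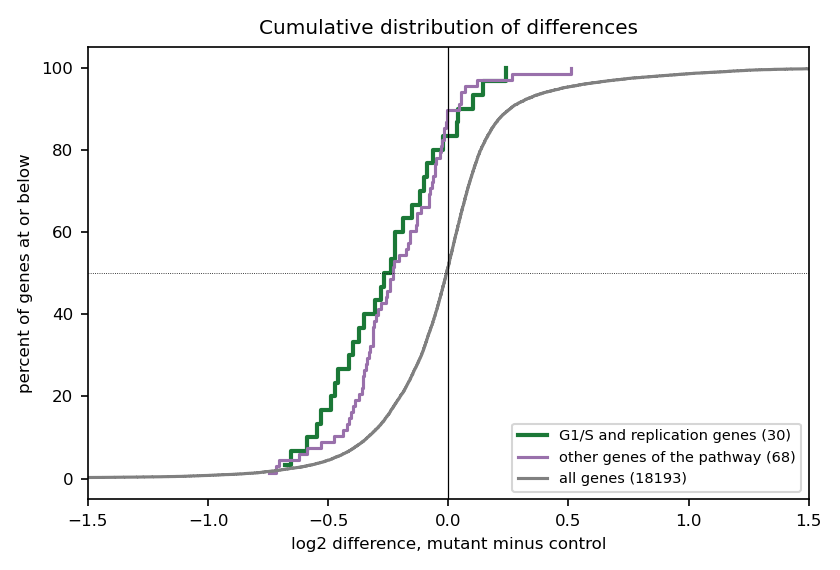
Percent of genes (vertical axis) at or below each log2 difference (horizontal axis, mutant minus control) for the 30 replication genes, 68 other genes of the pathway and all 18193 genes. The curves of the 30 and the 68 genes cross 50% near -0.25 and -0.23, left of the curve of all genes, and their upper ends stop at 0.24 and 0.51.

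Array by array, the mean of the 30 genes lay below every control array on 3 of the 4 mutant arrays. The mean of the 30 genes, each taken relative to its own mean over the 8 arrays, was -0.10, 0.08, -0.13 and -0.35 on the mutant arrays and 0.20, 0.08, 0.04 and 0.20 on the control arrays. Mutant 2 stood level with control 2 and above control 3, and mutant 4 lay far below the other arrays. The number of genes above their own mean was 10, 18, 12 and 3 on the mutant arrays and 26, 20, 17 and 23 on the control arrays. For the licensing genes the same mean was lowest on mutant 4 at -0.48 and highest on control 1 at 0.22. Without mutant 4 the median difference of the 30 genes was -0.18, and over all ways of leaving out 1 array it ran from -0.33 to -0.18.

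Macrophage content was read as the mean log2 intensity of Ctss, Tyrobp and Fcer1g, genes of lysosomes and immune receptors in myeloid cells. It was 14.34, 14.29, 14.40 and 12.86 on the mutant arrays and 13.78, 13.93, 12.74 and 12.47 on the control arrays. The difference was 0.74, with p = 0.171 in an exact two-sided permutation test over 70 divisions of the arrays, whose smallest possible p is 0.0286. All 21 macrophage and leukocyte markers had a higher mean in mutants. Of the 21, 5 were higher at an unadjusted limma p under 0.05, beside 5.84% of all genes, and 0 after adjustment, beside 0.0220%. The mean level of the 21 markers ranged from 11.33 to 13.42 on the mutant arrays and from 11.25 to 12.69 on the control arrays. The 8 arrays fell into 5 with a content of 13.78 or more and 3 with 12.86 or less, so no correlation over arrays is given. Among the 5, the mean of the replication genes was -0.10, 0.08 and -0.13 on mutants 1 to 3 and 0.20 and 0.08 on controls 1 and 2. Among the 3, it was -0.35 on mutant 4 and 0.04 and 0.20 on controls 3 and 4. The array with the lowest replication values thus had the lowest macrophage content among mutants. With macrophage content as a covariate, the median difference of the 30 genes was -0.34, 27 were lower, and 16 of 30 were lower at an unadjusted limma p under 0.05, beside 9.36% of all genes. Mcm10 then differed by -0.28, the polymerase group by a median of -0.31 and Ccnd2 by -0.11.

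**Figure D4:**
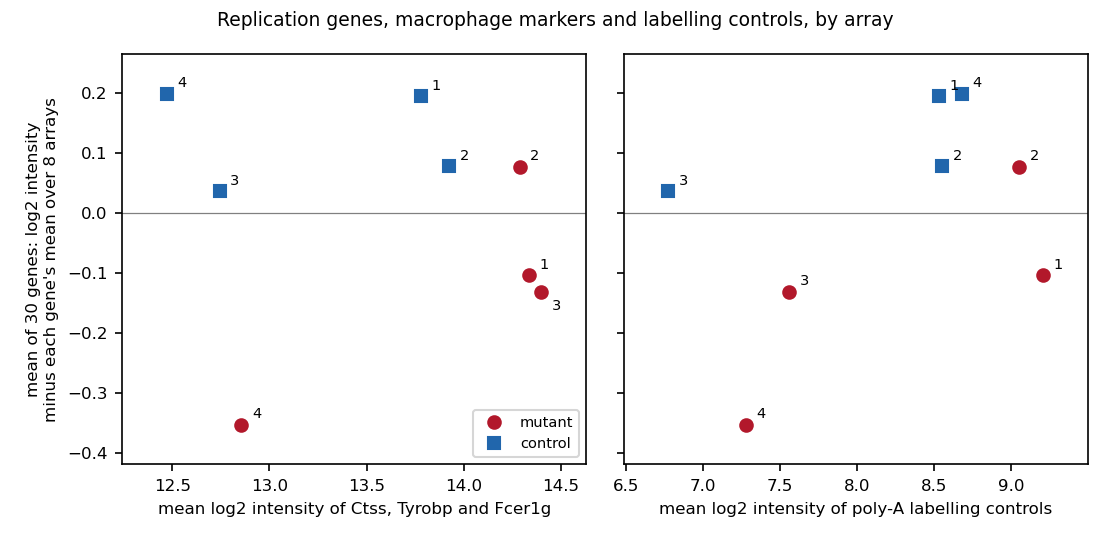
Mean of the 30 replication genes relative to each gene's own mean (vertical axis, log2) against macrophage content (left, log2 intensity) and against the poly-A labelling controls (right, log2 intensity), 1 point per array with its replicate number. Mutant 4 sits lowest at -0.35 in both panels, and mutant 2, at 0.08, is level with control 2.

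The spike-in controls moved with the replication genes on some arrays. Of the 3 arrays with low labelling controls, mutant 3 and mutant 4 had the lowest means of the 30 genes and control 3 the lowest among controls. The 18S ribosomal RNA probe sets read 9.43, 9.70 and 8.97 on these arrays, against 11.94 to 12.86 on the other 5. With the labelling controls (low or high) as a block 23 genes were lower, the median difference was -0.22, and 14 of 30 were lower at an unadjusted limma p under 0.05, beside 14.1% of all genes. Within the low-control arrays (mutants 3 and 4, control 3) the median difference was -0.32, with 3 of 30 lower at that level, beside 1.25% of all genes. Within the other 5 arrays it was -0.16, with 2 of 30 lower at that level, beside 10.7%. Within the arrays of low bioB, replicates 1 and 2 of each genotype, it was -0.16, with 23 of 30 lower and 4 of 30 at that level, beside 17.3%, so the share of the replication genes was below that of all genes there and at high labelling controls. Within the arrays of high bioB, replicates 3 and 4, it was -0.34, with 26 of 30 lower and 11 of 30 at that level, beside 3.52%. Mcm2 differed by -0.40 and -0.66 within the arrays of low and high bioB, Cdc6 by -0.41 and -0.90, Ccne1 by -0.24 and -0.94, and Rrm2 by -0.15 and -0.79. The nucleotide supply genes differed by a median of -0.19 at low and -0.41 at high bioB. What share of the differences goes with labelling was not tested beyond these fits.

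**Figure D5:**
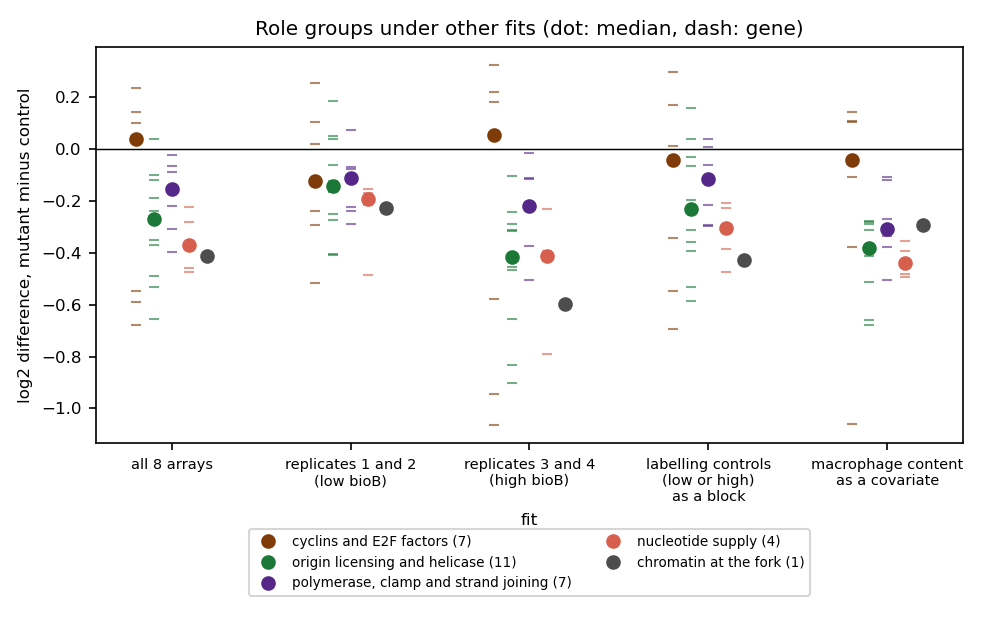
Log2 difference (vertical axis, mutant minus control) of each gene (dashes) and the median of each role group (dots) in 5 fits: all 8 arrays, the arrays with low bioB, the arrays with high bioB, the labelling controls as a block and macrophage content as a covariate. Licensing, polymerase and nucleotide medians lie below 0 in every fit shown, between -0.44 and -0.11, while the cyclin and E2F median lies near 0, from -0.12 to 0.05.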

How the data were processed

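Total RNA was labelled with biotin and hybridised to the arrays, per the labels' protocols. The deposited values are log2 intensities per probe set, processed by the authors with RMA per the submitters' processing notes, in a version not given in the sources used here. RMA sets the arrays to a common distribution, so a change shared by most genes would not show, and it keeps no detection call. The values were used as deposited. Of 45101 probe sets, 64 array controls, 932 with several symbols and those not listed in the gene table were left out. The other 34945 gave 18193 genes, each read by its brightest probe set. Groups were taken from the sample titles.

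Each gene was tested in R 4.3.3 with limma 3.58.1 (lmFit, eBayes, two-sided, without covariates), with Benjamini-Hochberg adjustment over all 18193 genes and a threshold of 0.05. The procedure was tested on simulated data. Values on every array are given for members without overlap between genotypes, for up to 3 members per role group with the smallest unadjusted p, and for the brightest of each group. Of the other pathway genes up to 6 per direction were named by size among those at an unadjusted p under 0.05. The members, lists and tests were chosen with earlier results of these data known.

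Alternatives changed the normalisation, the choice of probe set, the filter on dim genes, the variance model, the array weights, the arrays used (each left out in turn), the replicate number as a block, spike-in controls and macrophage content. Fits within each level of the labelling controls and without probe sets ending in _x_at or _s_at were added after seeing the data. The labels give no batch. Arrays were divided at the largest gap in the bioB or poly-A controls, and no label ties either division to a batch. Sex was not fitted, since the single array with high Xist is a control.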

Additional observations from a re-analysis of the deposited data

Results flagged for a closer look

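In 3 of the 64 sets of 4 arrays examined, 1 array stood far from the other 3, and chance alone flags about 1 in 20 such sets. Ccne1 read 9.67 on mutant 3, while the other mutant arrays lay together up to 9.97. Mcm6, a subunit of the MCM ring, read 11.19 on control 3, while the other control arrays lay together up to 11.69. Macrophage content read 12.86 on mutant 4, while the other mutant arrays lay together up to 14.40.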

How the results depend on the processing

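Member differences numbered 330 under alternatives that can move them, other than leaving out an array. Of these, 304 kept their direction and side of the threshold, and 25 in 10 genes changed sign. Since 0 of 30 members passed as reported, keeping that side says little. A difference that shrank without changing sign also counts as kept, such as Pola1 from -0.40 to -0.05 with averaged probe sets. The replicate and hybridisation blocks, the trended variance and the filter on dim genes leave a difference as it is and are not counted. The limma calls over all genes, 16 as reported, were 41 at a threshold of 0.1, 1470 with array weights, 0 with the replicate block, 2 with the labelling controls as a block and 0 without probe sets ending in _x_at or _s_at. They were 2085 and 0 within the arrays of low and high bioB, and 4 within those of high labelling controls. Where calls were 0, the genes lower at an unadjusted limma p under 0.05 numbered 2272 with the replicate block, 1691 without _x_at and _s_at probe sets and 641 at high bioB. With array weights 1 of 30 members, Mcm2, passed (-0.44), beside 927 genes called lower and 543 called higher of all 18193. Members lower at an unadjusted p under 0.05, 12 as reported, were 4 of 30 at low bioB (17.3% of all genes), 3 at low labelling controls (1.25%) and 2 at high labelling controls (10.7%). Same-numbered mutant and control arrays deviated from their group means with correlations of 0.47, 0.42, -0.09 and 0.37. No mutant array correlated best with the control of its own number. Among controls, only control 1 and control 4 correlated best with the mutant of their number. The replicate block gave 15 members lower at an unadjusted limma p under 0.05 (12.5% of all genes). Median differences moved to -0.18 for nucleotide supply with averaged probe sets, and at low bioB to -0.19 for nucleotide supply, -0.12 for cyclins and E2F factors and -0.23 for Uhrf1. Uhrf1 gave -0.60 at high bioB, and the polymerase group -0.31 with the macrophage covariate. Signs changed for Fen1 (0.0079 with quantile normalization, 0.0158 with array weights, 0.0413 with the labelling block, 0.0733 at low bioB, 0.0874 at high labelling controls) and E2f1 (-0.0650 with averaged probe sets, -0.0397 with the labelling block, -0.0193 and -0.0511 at low and high labelling controls). They changed for Mcm10 (-0.0168 averaged, -0.10 at high bioB, -0.12 at low labelling controls, -0.28 with the covariate) and Cdt1 (0.0397 with the labelling block, 0.0527 at low bioB, 0.19 at high labelling controls). They also changed for Lig1 (0.0084 with the labelling block, 0.0946 at high labelling controls), Ccnd3 (-0.12 at low bioB, -0.0767 at high labelling controls) and Gins1 (0.0405 at low bioB, 0.0611 at high labelling controls). The last were Pcna (0.0041 at low labelling controls), Ccnd1 (-0.0258 at high labelling controls) and E2f2 (-0.0411 with the covariate). The cause was not tested. Leaving out 1 array gave 0 to 1316 calls over all genes. At an unadjusted limma p under 0.05, 8 to 14 of 30 members were lower. The 8 came without control 1, beside 7.59% of all genes, and the 14 without mutant 2, beside 8.16%. Over all these fits the share of all genes was 6.15% to 14.0%. Members higher at that level numbered 0 to 1, with the 1 in the fit without mutant 4. Of all 18193 genes that fit called 635 lower and 681 higher after adjustment. In that fit 21 members had a lower mean and 9 a higher one. Medians were -0.33 to -0.18 for the members, -0.07 to 0.09 for cyclins and E2F factors and -0.37 to -0.19 for licensing. They were -0.21 to -0.04 for polymerases, -0.46 to -0.29 for nucleotide supply and -0.51 to -0.34 for Uhrf1. The other pathway genes ranged from -0.27 to -0.18 and macrophage content from 0.49 to 1.11. Of 240 member differences 13 changed sign, in Mcm10 (-0.10 to 0.25), Ccnd3 (-0.0373 to 0.26), E2f1 (-0.0705 to 0.11), Fen1 (-0.0733 to 0.0387), Cdt1 (-0.29 to 0.0574), Gins1 (-0.18 to 0.0532) and Lig1 (-0.21 to 0.0336). Probe sets below the median, as for Tyms, may lie close to background.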
